A study of Mus musculus with 7 samples.

Results

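Cytokine, chemokine and receptor genes were examined in the hearts of mNrf2-TG and NTG mice. They were taken by symbol alone, as every gene whose name starts with Ccl, Ccr, Cxcl, Cxcr, Cx3c, Il, Tnfsf or Tnfrsf (with a number where the family is numbered), with 1 entry kept per gene. This gave 113 of the 14641 genes in the table: 29 chemokine ligands, 12 chemokine receptors, 11 interleukins, 3 interleukin antagonists and decoys, 33 interleukin receptor chains, 7 TNF superfamily ligands and 18 TNF superfamily receptors. An entry listed under both Ccl27a and Gm13306 is called Gm13306 here.

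Chemokines are small secreted proteins that steer leukocytes by binding receptors of the G protein-coupled class. Many interleukins act through receptor chains that recruit JAK kinases and STAT factors, while the IL-1 group uses the MyD88 adaptor and NF-κB and the IL-17 group the adaptor Act1. TNF superfamily ligands bind trimeric receptors that lead to NF-κB or to cell death. In the heart these messages pass between resident macrophages, endothelial cells, fibroblasts and cardiomyocytes, and most are made at low levels in the absence of injury.

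RNA-seq had been run on whole heart lysate of male C57BL/6J mice. The mNrf2-TG group (3 hearts, numbered 17 to 19) carries full-length Nrf2 (Nfe2l2, the master factor of antioxidant genes) under the α-myosin heavy chain promoter, which drives it in cardiomyocytes. The NTG group (4 hearts, numbered 1 to 4) consists of non-transgenic mice. The authors describe the controls as litter mates, and their methods give an age of 6 to 7 months for both genotypes. The series gives an age of 7 to 8 months, while the labels of the mNrf2-TG samples give 6 months and those of NTG give none, so that age and genotype cannot be told apart if the ages did differ. Nothing in the labels ties a library to more than its own number, and p-values measure the spread between these samples. The transgene was visible in every library: Nfe2l2 had 729 to 1392 counts in NTG against 10912 to 12839 in mNrf2-TG.

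The libraries held 6534684 to 8405857 counts, of which the 113 genes took 9652 to 12656, or 0.1386% to 0.1549% of the total. Cardiomyocyte markers were abundant, and 10 of them made up 93618 to 101836 CPM (counts scaled to a common library total) in NTG against 81951 to 86446 in mNrf2-TG. The 12 macrophage markers summed to 258 to 376 CPM in NTG against 404 to 571 in mNrf2-TG, so the groups did not overlap. T and NK cell markers summed to at most 3.67 CPM in every library and B cell markers to at most 3.0, and all 14 genes measured on those lists had a mean count under 10. Endothelial markers summed to 1205 to 1300 CPM in NTG against 1084 to 1156 in mNrf2-TG, and fibroblast markers to 2666 to 2946 and 3158 to 3709, also without overlap. The part of these cell types in the results was not tested. In bulk tissue, fewer cells of a type and less RNA per cell cannot be told apart.

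Of the 113 genes, 52 were too low to judge, defined as a mean count under 10 over the 7 libraries, and 61 could be judged. The rule looks at all libraries together and not at the groups. For the 52 low genes the 95% interval of the Log2FC (log2 of mNrf2-TG over NTG) reached 0.94 to 3.70 to either side, with a median of 1.99, so that a change of 2-fold, which is 1 on this scale, would usually lie within the interval around 0. For the 61 others the interval reached 0.16 to 2.02 to either side, with a median of 0.53. Of the judged genes, Ccl8 and Tnfrsf14 had a mean count under 10 in NTG and Cxcl1 in mNrf2-TG, so that they passed the minimum through the group where they were high. Among the low genes, 14 had at most 3 counts in every library.

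**Figure D1:**
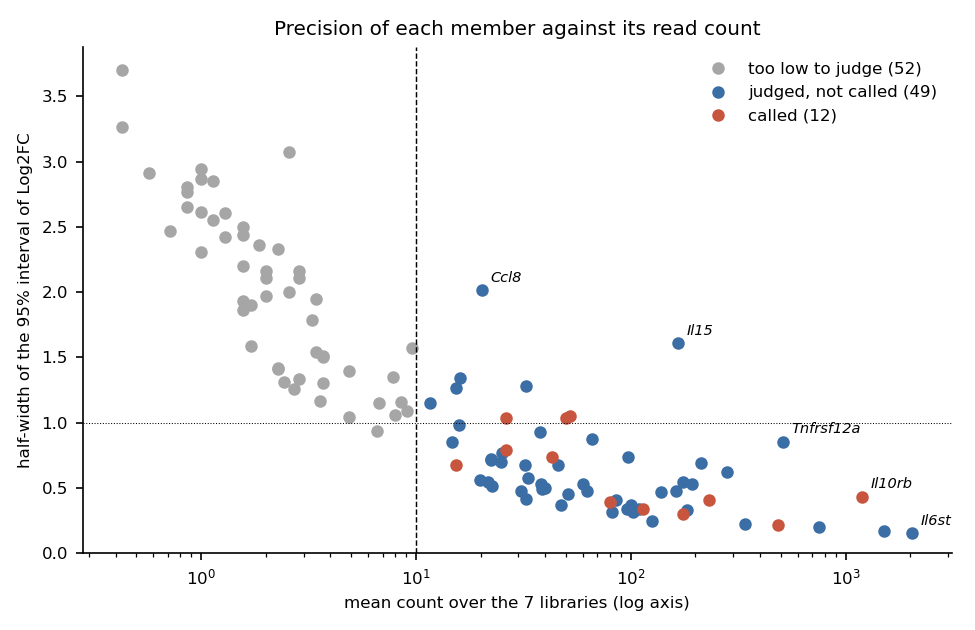
Half-width of the 95% interval of the Log2FC against the mean count over the 7 libraries (log axis), 1 point per gene, with a dashed line at a mean count of 10 and a dotted line at a half-width of 1 (2-fold). The interval narrows as counts rise, and all 12 called genes lie to the right of 10, while Ccl8 and Il15 have wide intervals at counts where others are narrow.

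The genes too low to judge included many classical inflammatory messengers. Among ligands they were the chemokines Ccl3, Ccl5, Ccl12, Ccl19, Ccl22, Ccl25, Ccl27b, Gm13306, Ccl28, Cxcl2, Cxcl5 and Cxcl10, the interleukins Il1b, Il7, Il12a, Il12b, Il18 and Il23a, and the TNF ligands Tnfsf9, Tnfsf13, Tnfsf13b, Tnfsf14 and Tnfsf18. Among receptors they were Ccr7, Ccr9, Ccr10, Cxcr2, Cxcr3, Cxcr5 and Cxcr6, the IL-1 antagonist Il1rn and decoy receptor Il1r2, the interleukin receptor chains Il2rb, Il7r, Il9r, Il12rb1, Il17rb, Il17re, Il18r1, Il18rap, Il20rb, Il21r, Il22ra1 and Il22ra2, and the TNF receptors Tnfrsf4, Tnfrsf9, Tnfrsf11b, Tnfrsf13b, Tnfrsf17, Tnfrsf18, Tnfrsf25 and Tnfrsf26. Il1b, the main secreted IL-1 form, had 10, 9, 4 and 12 counts in NTG 1 to 4 and 2, 14 and 4 in mNrf2-TG 17 to 19, with a Log2FC of -0.43 and an interval from -1.78 to 0.92. Values of this size allow no statement on the direction of IL-1β transcripts. None of the 52 passed edgeR's test after adjustment. DESeq2 called none of them, but it gave no adjusted p for some, such as Il1r2 and Il1rn, which could therefore not be called. With edgeR, 5 of the 52 had an unadjusted p under 0.05. Tnfrsf9 was higher and Tnfrsf25, Il1r2, Il17re and Il22ra2 were lower, each with at most 21 counts in any library.

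In total 12 of the 113 genes passed the test, 6 higher and 6 lower in mNrf2-TG hearts (edgeR's quasi-likelihood test, Benjamini-Hochberg adjusted p under 0.05 over all genes tested). This is 10.6% of them. Over all 14637 genes tested, 17.2% were called, 8.48% as higher and 8.73% as lower, and of genes with a mean count of at least 10 it was 20.1%. By the cut of more than 2-fold at an unadjusted p under 0.05 there were 14 (12.4%), 7 in each direction (6.19% each), against 5.65% of all genes (3.57% higher and 2.08% lower). The share of the 113 was above that of all genes by this cut and below it by the adjusted one, and neither difference was tested. Of these 14 genes, 5 were too low to judge. The counts of 19 of the 113 genes did not overlap between the groups, 11 higher and 8 lower, against 29.7% of all genes (15.0% higher and 14.7% lower). The median Log2FC was 0.05 over the 113 genes and 0.001 over all genes. The number called rested on single libraries: it fell to 6 without NTG 2 and to 7 without NTG 1, mNrf2-TG 17 or mNrf2-TG 18, and rose to 14 without NTG 3.

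**Figure D2:**
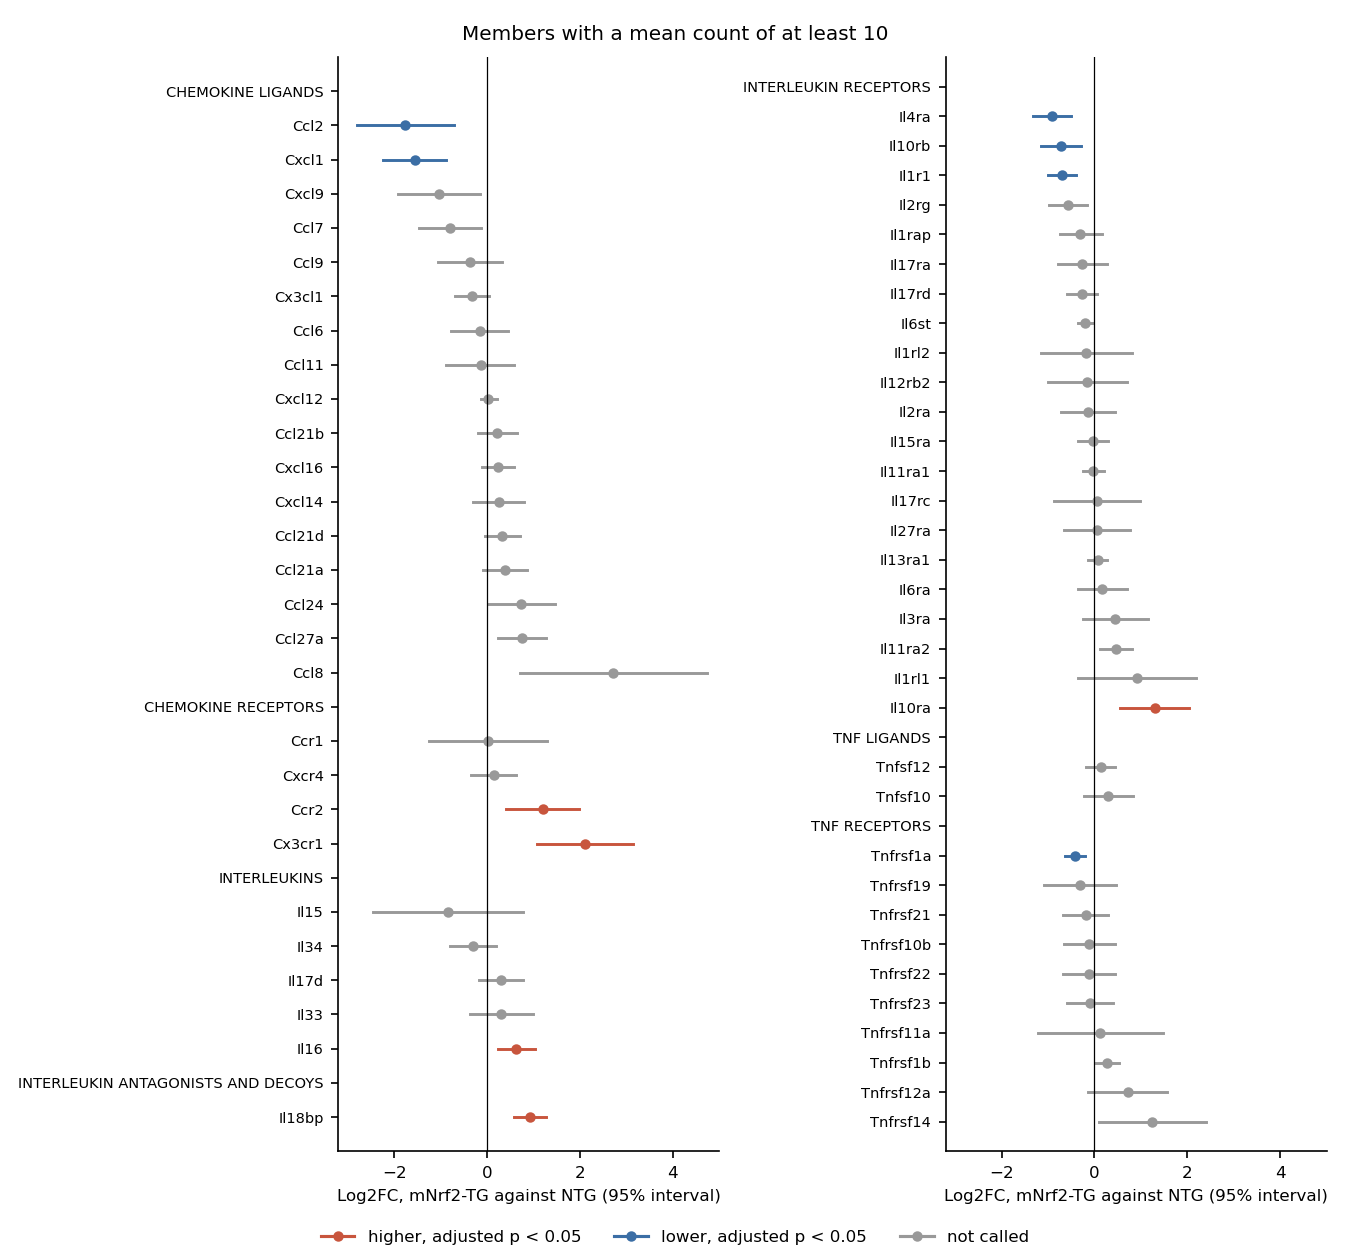
Log2FC of mNrf2-TG against NTG with its 95% interval for genes with a mean count of at least 10, by role (red, called higher; blue, called lower; grey, not called). Lower calls lie among the chemokine ligands, interleukin receptors and TNF receptors, higher calls among the chemokine receptors, interleukins, antagonists and interleukin receptors.

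Of the 29 chemokine ligands, 17 could be judged and 2 passed the test, Ccl2 and Cxcl1, both lower in mNrf2-TG hearts. Ccl2, the ligand that draws Ccr2-bearing monocytes, had 56, 91, 120 and 33 counts in NTG 1 to 4 and 32, 24 and 11 in mNrf2-TG 17 to 19. The groups touched, since NTG 4 lay below mNrf2-TG 17 after normalization. The normalized counts (scaled to a common library size) were 75.7 ± 37.9 (SD, n = 4) in NTG and 22.7 ± 12.3 (SD, n = 3) in mNrf2-TG, with a Log2FC of -1.76 (SE 0.47, edgeR adjusted p = 0.0302). The call was lost without NTG 1, NTG 2, mNrf2-TG 18 or mNrf2-TG 19, at adjusted p of 0.0548 to 0.1.

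Cxcl1, a neutrophil attractant that is read by Cxcr2, showed the steadier fall. It had 21, 21, 21 and 22 counts in the 4 NTG libraries and 9, 5 and 8 in the mNrf2-TG libraries, with no overlap. Its mean count was 21.25 in NTG and 7.33 in mNrf2-TG, so that it passed the minimum of 10 through NTG. The normalized counts were 21.6 ± 2.15 and 7.29 ± 2.38, a Log2FC of -1.56 (SE 0.30, edgeR adjusted p = 0.0081), and the call held in all 12 alternative fits. Its receptor Cxcr2 had at most 7 counts in any library.

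The 300 bases around an annotated start of 3 called genes are shown because they hold letters that are searched for in this field: the antioxidant response element core (TGACNNNGC), to which Nrf2 binds, and the NF-κB motif, both searched on both strands. The sequences are those of RefSeq on GRCm38.p6, given from 250 bases before the start to 50 after it on the gene's own strand, with matches in capitals. Overlapping matches are written as 1 capital run. Cxcl1 on chromosome 5 and Il16 on chromosome 7 hold the same NF-κB stretch, which in Il16 is present at 1 of its 3 starts in the table, and Il4ra on chromosome 7 holds an antioxidant response element core followed by an NF-κB match.
Cxcl1, chr5:90890995-90891294, plus strand: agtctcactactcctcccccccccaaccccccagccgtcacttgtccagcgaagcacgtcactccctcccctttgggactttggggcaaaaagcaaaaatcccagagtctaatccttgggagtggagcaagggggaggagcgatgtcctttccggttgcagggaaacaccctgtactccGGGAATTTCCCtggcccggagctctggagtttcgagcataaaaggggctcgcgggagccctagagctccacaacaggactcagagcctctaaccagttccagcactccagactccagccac
Il16, chr7:83655446-83655745, minus strand: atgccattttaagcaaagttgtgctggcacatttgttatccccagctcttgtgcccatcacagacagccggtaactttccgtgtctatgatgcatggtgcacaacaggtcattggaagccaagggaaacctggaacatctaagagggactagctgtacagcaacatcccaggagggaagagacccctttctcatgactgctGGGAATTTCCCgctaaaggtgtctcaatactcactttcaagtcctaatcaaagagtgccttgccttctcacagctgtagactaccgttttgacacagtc
Il4ra, chr7:125552021-125552320, plus strand: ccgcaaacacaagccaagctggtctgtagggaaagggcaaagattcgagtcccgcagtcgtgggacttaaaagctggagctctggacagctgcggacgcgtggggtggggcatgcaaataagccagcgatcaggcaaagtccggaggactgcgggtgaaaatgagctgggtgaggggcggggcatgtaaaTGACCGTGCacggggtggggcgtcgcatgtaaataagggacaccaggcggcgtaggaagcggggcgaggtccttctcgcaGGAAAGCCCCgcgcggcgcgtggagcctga

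Counted from the start, the NF-κB stretch begins at -71 in Cxcl1 and at -49 in Il16. The genes with this shared stretch went in opposite directions, with Cxcl1 lower and Il16 higher in mNrf2-TG hearts. The other called genes with an NF-κB match, Il4ra (at 21) and Il1r1 (at -232), were both lower. In Il1r1 the match was absent at another of its starts in the table. The antioxidant response element core of Il4ra begins at -60. Of the 12 called genes 8 had a sequence in the table, with 11 promoters, of which 1 held the antioxidant response element core and 4 an NF-κB match, while 1 held the GAS letters TTCNNNGAA to which STAT factors bind (Tnfrsf1a, at -244). The core was in 11.8% of the 110 promoters of 85 cytokine and receptor genes and in 12.4% of all 32851 promoters. The NF-κB motif was in 11 of the 110 and in 4.51% of all promoters, and GAS in 10.9% and 8.3%. Several promoters of a gene are counted apart, and a match of letters is not a binding site.

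The other 15 judged chemokine ligands did not pass. Ccl8, a monocyte attractant, counted as judged only through mNrf2-TG 18, since its mean count of 20.3 became 7.33 without that library. It had 7, 4, 9 and 3 counts in NTG and 17, 98 and 4 in mNrf2-TG. Its Log2FC was 2.72, with the widest interval of the judged genes (95% interval 0.71 to 4.74, edgeR adjusted p = 0.065), fell to 0.84 without mNrf2-TG 18 (adjusted p = 0.471) and was 3.28 without mNrf2-TG 19 (adjusted p = 0.0162). Cxcl9, an interferon-γ target that attracts T cells through Cxcr3, had 114, 81, 60 and 78 counts in NTG and 14, 65 and 49 in mNrf2-TG, with a Log2FC of -1.03 (edgeR adjusted p = 0.0989). DESeq2 called both, Ccl8 at an adjusted p of 0.00835 and Cxcl9 at 0.0455.

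Cxcl12, the stromal ligand that retains Cxcr4-bearing cells, was the most abundant chemokine, with 1248, 1510, 1569 and 1566 counts in NTG and 1500, 1505 and 1632 in mNrf2-TG. The groups overlapped fully, and the Log2FC of 0.03 had an interval from -0.14 to 0.21. Its receptor Cxcr4 had 47 to 64 counts in NTG against 47 to 101 in mNrf2-TG (Log2FC 0.14, interval -0.34 to 0.62). Ccl6 and Ccl9, CC chemokines of myeloid cells, had 221 to 400 and 148 to 315 counts in NTG, and 171 to 382 and 115 to 233 in mNrf2-TG, with Log2FC of -0.16 and -0.36. Ccl7, which shares the receptor Ccr2 with Ccl2 and lies beside it on chromosome 11, had a Log2FC of -0.79 (interval -1.47 to -0.12, edgeR adjusted p = 0.102) and passed only without NTG 4. The eosinophil attractants Ccl11 and Ccl24 had Log2FC of -0.14 and 0.74, the membrane-bound Cx3cl1 and Cxcl16 had -0.33 and 0.24, and Cxcl14 had 0.25.

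The Ccl21 and Ccl27 genes are near-identical copies, and their counts are uncertain. Of all stretches of 50 bases, the read length, another gene shared 100% of those of Ccl21b, 97.1% of Ccl21d, 71.6% of Ccl21a, 45.0% of Ccl27a, 75.1% of Gm13306 and 98.1% of Ccl27b. Ccl21a, Ccl21b and Ccl21d, ligands of Ccr7 in lymphatic vessels, had Log2FC of 0.38, 0.22 and 0.33. Ccl27a had 13, 19, 15 and 22 counts in NTG and 31, 27 and 31 in mNrf2-TG, which did not overlap (Log2FC 0.75, edgeR adjusted p = 0.0522), and it passed when only library totals were used for scaling, when genes with a mean count under 10 were left out and without NTG 4.

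Of the 12 chemokine receptors, 5 could be judged and 3 passed, all higher in mNrf2-TG hearts, among them Cx3cr1 and Ccr2. Both are carried by monocytes and macrophages. Cx3cr1, the fractalkine receptor, had 9, 4, 24 and 5 counts in NTG and 41, 42 and 60 in mNrf2-TG. Every mNrf2-TG library lay above every NTG library, at 46.7 ± 6.90 against 10.9 ± 9.67 normalized counts, a 4.32-fold difference (Log2FC 2.11, SE 0.47, edgeR adjusted p = 0.0137). Only leaving out mNrf2-TG 19 lost the call (adjusted p = 0.0513), and without NTG 3, the highest of the NTG libraries, the Log2FC was 2.92. Its ligand Cx3cl1 had 88 to 140 counts in NTG against 89 to 90 in mNrf2-TG (Log2FC -0.33, interval -0.70 to 0.04).

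Ccr2, the receptor of Ccl2, had 13, 22, 22 and 10 counts in NTG and 34, 58 and 26 in mNrf2-TG, without overlap. The means were 16.8 ± 5.59 and 39.1 ± 16.9, a Log2FC of 1.20 (SE 0.35, edgeR adjusted p = 0.0427). The call was lost without any 1 of NTG 1, NTG 2, NTG 4, mNrf2-TG 17 and mNrf2-TG 18, at adjusted p of 0.0747 to 0.175, and without mNrf2-TG 18 the Log2FC was 0.82. Ccr2 and its ligand Ccl2 thus went in opposite directions in the same hearts. Ccr1, another receptor of monocytes, did not pass. It had 22, 36, 63 and 7 counts in NTG and 31, 51 and 17 in mNrf2-TG, with a Log2FC of 0.02 and an interval from -1.26 to 1.30.

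**Figure D3:**
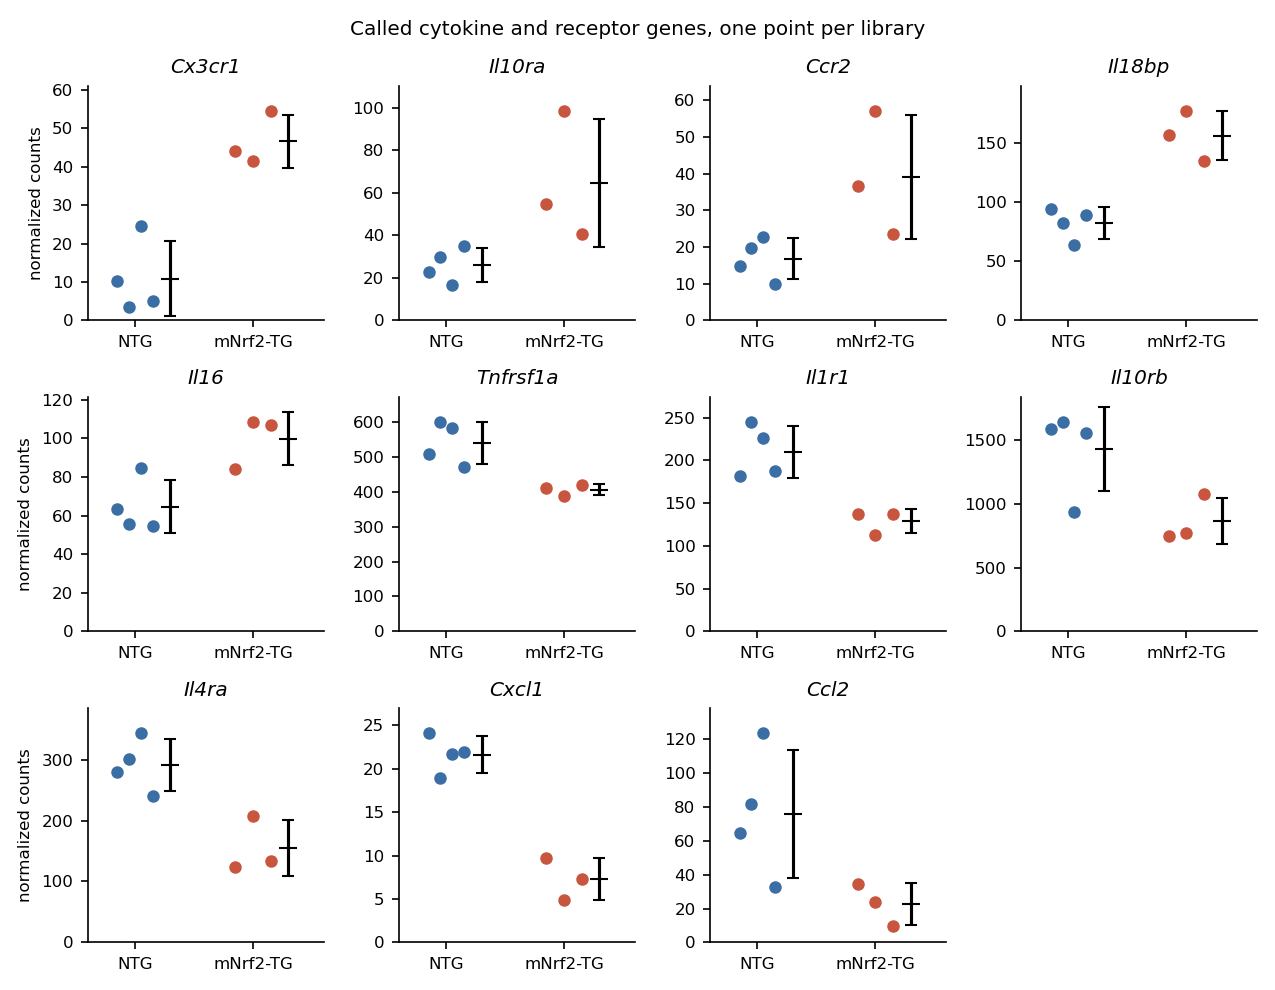
Normalized counts of 11 called genes, 1 point per library, with the mean and SD of each group beside the points. Groups do not overlap for Cx3cr1, Ccr2, Il10ra, Il18bp, Tnfrsf1a, Il1r1, Il4ra and Cxcl1, and overlap for Il16, Il10rb and Ccl2.

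Macrophage markers moved with these receptors. Of the 12, 6 passed as higher and none as lower, with Log2FC of 1.25 for Cd163, 1.19 for Adgre1, 1.10 for C1qb, 1.06 for Csf1r, 0.86 for C1qa and 0.79 for C1qc, and each of the 6 kept its call when any 1 library was left out. The summed level was 280, 285, 376 and 258 CPM in NTG 1 to 4 and 419, 571 and 404 in mNrf2-TG 17 to 19. mNrf2-TG 18 held the highest sum and also the highest values of Ccr2, Il10ra and Ccl8. Cx3cr1 was instead highest in mNrf2-TG 19. Of the 9 monocyte and neutrophil markers, 1 passed as lower (Ly6c2, Log2FC -0.54) and none as higher, with sums of 55.4 to 79.6 in NTG and 36.5 to 62.6 in mNrf2-TG. The Ly6c2 call was lost without mNrf2-TG 17 or 19 (adjusted p up to 0.0694). The part that macrophage content has in the receptor differences was not tested.

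**Figure D4:**
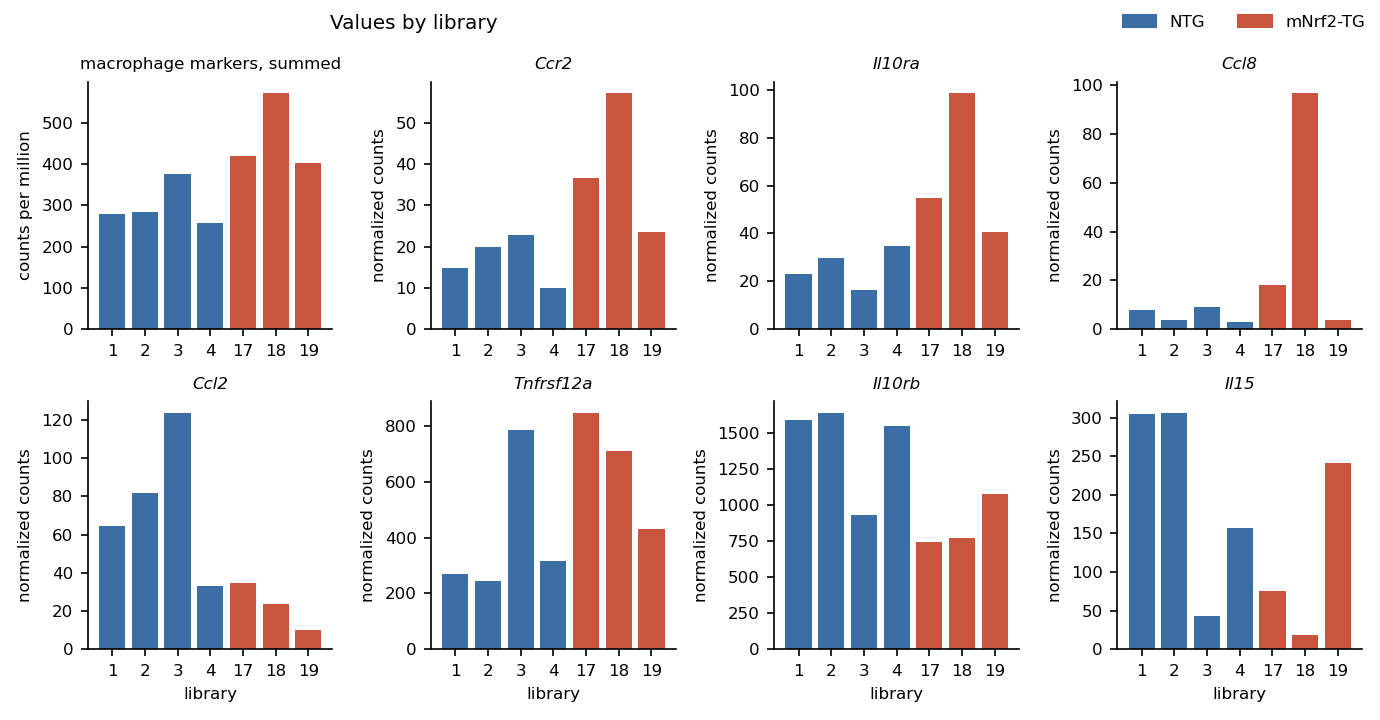
Values in each library (NTG 1 to 4, blue; mNrf2-TG 17 to 19, red) of the summed macrophage markers in CPM and of 7 genes in normalized counts. mNrf2-TG 18 is highest for the markers, Ccr2, Il10ra and Ccl8. NTG 3 is near mNrf2-TG 17 and 18 for Tnfrsf12a and Il15, and lies between mNrf2-TG 18 and 19 for Il10rb.

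Of the 11 interleukins, 5 could be judged and 1 passed. Il16, a CD4-binding attractant made as a larger precursor, had 55, 62, 82 and 55 counts in NTG and 78, 110 and 118 in mNrf2-TG. Its normalized counts were 64.6 ± 13.8 and 99.8 ± 13.8, with NTG 3 just above mNrf2-TG 17, and the Log2FC was 0.63 (SE 0.18, edgeR adjusted p = 0.0359). The call was lost without NTG 1, NTG 2, NTG 4, mNrf2-TG 18 or mNrf2-TG 19, at adjusted p of 0.0728 to 0.112. Its exons share 1202 bases with Stard5 on the opposite strand, and smaller opposite-strand overlaps exist for Il4ra (571 bases, Gm44876), Il18bp (80 bases, Numa1) and Cx3cr1 (78 bases, Gm33858). Whether strand was used in counting is not given in the sources used here, so reads of such pairs may be mixed.

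Il15, which sustains NK and memory T cells, had the highest count of the interleukins and the most uneven one. It had 265, 340, 42 and 158 counts in NTG and 70, 18 and 266 in mNrf2-TG, so that both groups held high and low libraries. The Log2FC of -0.84 had an interval from -2.45 to 0.77 (edgeR adjusted p = 0.462), while its receptor chain Il15ra, with 136 to 231 counts, had a Log2FC of -0.03 (interval -0.36 to 0.30). Il33, the alarmin that binds Il1rl1, had 31, 53, 60 and 21 counts in NTG and 56, 52 and 48 in mNrf2-TG (Log2FC 0.31, interval -0.37 to 0.99). Il1rl1 itself had 4, 10, 27 and 3 counts against 22, 20 and 22, a Log2FC of 0.91 (interval -0.35 to 2.18) that passed only without NTG 3. Il34, a ligand of Csf1r, and Il17d had Log2FC of -0.30 and 0.30.

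Il18bp, the secreted protein that binds and blocks IL-18, was higher in mNrf2-TG hearts, with the smallest p of the 113 genes. It had 82, 92, 62 and 90 counts in NTG and 146, 180 and 149 in mNrf2-TG, without overlap. The means were 82.6 ± 13.3 and 156.6 ± 21.1, a 1.89-fold difference (Log2FC 0.92, SE 0.15, edgeR adjusted p = 0.00401), and the call held in all 12 alternative fits. Il18 itself had at most 3 counts in any library, and its receptor chains Il18r1 and Il18rap at most 7 and 3, so that the cytokine blocked by Il18bp was too low to judge. The IL-1 antagonist Il1rn had 0 to 5 counts in NTG against 3 to 6 in mNrf2-TG, and the decoy Il1r2 had 0, 7, 9 and 1 against 0, 1 and 0.

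Of the 33 interleukin receptor chains, 21 could be judged and 4 passed, with Il10ra higher and Il4ra, Il1r1 and Il10rb lower in mNrf2-TG hearts. Il4ra, the chain shared by the receptors for IL-4 and IL-13, had 243, 335, 333 and 242 counts in NTG and 115, 211 and 148 in mNrf2-TG. No mNrf2-TG library reached the lowest NTG library, and the normalized counts were 291.3 ± 42.8 and 155.3 ± 45.8 (Log2FC -0.91, SE 0.18, edgeR adjusted p = 0.00963). The call held in all 12 alternative fits. Its partner for IL-13, Il13ra1, was level: 606 to 794 counts in NTG against 720 to 814 in mNrf2-TG, with a Log2FC of 0.07 and an interval from -0.13 to 0.27. The other partner, the shared γ chain Il2rg, had a Log2FC of -0.57 (interval -0.97 to -0.16, edgeR adjusted p = 0.0585) and passed without NTG 2 or mNrf2-TG 18. Its exons share 728 bases, or 30.5%, with Gm20489 on the same strand.

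Il1r1, the signalling receptor of IL-1, had 158, 272, 220 and 188 counts in NTG and 128, 115 and 151 in mNrf2-TG. The groups did not overlap, at 210.1 ± 30.7 and 129.4 ± 13.9 normalized counts, and the Log2FC of -0.70 (SE 0.14, edgeR adjusted p = 0.00788) was called in all 12 alternative fits. Its co-receptor Il1rap had 46 to 62 counts in NTG against 37 to 59 in mNrf2-TG, with a Log2FC of -0.30 and an interval from -0.75 to 0.16.

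The chains of the IL-10 receptor went in opposite directions. Il10ra, the ligand-binding chain found mainly on leukocytes, had 20, 33, 16 and 35 counts in NTG and 51, 100 and 45 in mNrf2-TG, without overlap (26.0 ± 7.99 against 64.7 ± 30.1 normalized counts; Log2FC 1.30, SE 0.33, edgeR adjusted p = 0.025). The call was lost without NTG 1, NTG 2, mNrf2-TG 17 or mNrf2-TG 18, at adjusted p of 0.052 to 0.0982. Il10rb, the accessory chain that also serves the IL-22 and type III interferon receptors, had 1383, 1822, 906 and 1560 counts in NTG and 694, 783 and 1184 in mNrf2-TG. The groups overlapped because NTG 3 was low. The means were 1429.1 ± 331.9 and 864.3 ± 182.7, with a Log2FC of -0.72 (SE 0.20, edgeR adjusted p = 0.032).

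Il10rb was sensitive to which hearts were included. Its call was lost without NTG 1, NTG 2, NTG 4, mNrf2-TG 17 or mNrf2-TG 18, at adjusted p of 0.0697 to 0.12, and without NTG 3 the Log2FC was -0.88 (adjusted p = 0.00117). NTG 3 stood apart from the other NTG hearts in another way: smooth muscle and pericyte markers summed to 2477 CPM in NTG 3, 2288 in mNrf2-TG 17 and 2350 in mNrf2-TG 18, against 1341 to 1390 in the other NTG libraries and 1868 in mNrf2-TG 19. The part of these cells in the Il10rb values was not tested. The annotated exons of Il10rb also share 569 bases, or 14.9%, with Gm21970 on the same strand. In CPM per kilobase of exon, Il10rb had the highest level of the named genes at 41.4 over the 7 libraries, followed by Tnfrsf12a at 35.5 and Il13ra1 at 26.9.

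Il6st, the gp130 chain through which IL-6, IL-11, LIF and oncostatin M signal, had the highest count. Its libraries held 1783, 2497, 2228 and 2087 counts in NTG and 1771, 1936 and 2018 in mNrf2-TG, and after normalization the groups did not overlap (2167.9 ± 122.8 against 1881.5 ± 43.2). The Log2FC of -0.20 (interval -0.36 to -0.05) missed the threshold (edgeR adjusted p = 0.0652; DESeq2 adjusted p = 0.0421). The ligand-specific chains beside it were level or unclear, with Log2FC of 0.17 for Il6ra and -0.02 for Il11ra1, whose near-copy Il11ra2 had 0.47 (edgeR adjusted p = 0.0599), passed without NTG 4 or mNrf2-TG 18, and shared all of its 50-base stretches with other genes. The IL-17 receptor chains Il17ra, Il17rc and Il17rd had Log2FC of -0.26, 0.05 and -0.26. The remaining judged chains, Il1rl2, Il2ra, Il3ra, Il12rb2 and Il27ra, had mean counts of 14.7 to 33.1 and Log2FC from -0.18 to 0.45, none of which passed.

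Of the 7 TNF ligands, only Tnfsf10 (TRAIL) and Tnfsf12 (TWEAK) could be judged. None of the 7 passed with edgeR or DESeq2, or had an unadjusted p under 0.05. Tnfsf10 had 164, 203, 187 and 134 counts in NTG and 153, 325 and 177 in mNrf2-TG, with a Log2FC of 0.30 (interval -0.23 to 0.83). Tnfsf12 had 67 to 85 and 74 to 106, with a Log2FC of 0.14 (interval -0.18 to 0.45), and 46.8% of its stretches of 50 bases were shared with the read-through gene Tnfsfm13. The B cell survival factor Tnfsf13b had 4 to 11 counts in every library.

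Of the 18 TNF receptors, 10 could be judged and 1 passed. Tnfrsf1a, the widely expressed TNF receptor with a death domain, had 442, 666, 564 and 474 counts in NTG and 381, 395 and 461 in mNrf2-TG. After normalization the groups did not overlap and were tight, at 540.2 ± 60.3 and 405.8 ± 15.1 (Log2FC -0.41, SE 0.10, edgeR adjusted p = 0.0174). The call was lost without NTG 2, mNrf2-TG 17 or mNrf2-TG 18, at adjusted p of 0.0514 to 0.0658. The other TNF receptor, Tnfrsf1b, which is carried by leukocytes and endothelium, had 101 to 124 counts in NTG against 122 to 152 in mNrf2-TG, a Log2FC of 0.28 (interval 0.04 to 0.53, edgeR adjusted p = 0.107). Tnf itself had 0 to 6 counts in every library.

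Tnfrsf12a (Fn14), the receptor of TWEAK and a gene of injured muscle and fibroblasts, had 234, 270, 764 and 318 counts in NTG and 788, 724 and 475 in mNrf2-TG. NTG 3 lay among the mNrf2-TG libraries, and the Log2FC was 0.72 (interval -0.14 to 1.57, edgeR adjusted p = 0.23). Tnfrsf12a passed only without NTG 3 (Log2FC 1.26, edgeR adjusted p = 0.00265). With any 1 library left out its Log2FC was 0.5 to 1.26, at edgeR adjusted p of up to 0.509. Tnfrsf14 (HVEM) had 15, 5, 4 and 4 counts in NTG and 10, 19 and 24 in mNrf2-TG. It counted as judged only through mNrf2-TG, since its mean count of 11.6 became 9.5 without mNrf2-TG 19. Its Log2FC was 1.25 (edgeR adjusted p = 0.128). The gene passed only without NTG 1 (Log2FC 2.01, edgeR adjusted p = 0.0202). With any 1 library left out its Log2FC was 1.03 to 2.01, at edgeR adjusted p of up to 0.316. Tnfrsf21 (DR6) had 136 to 211 counts in NTG against 114 to 225 in mNrf2-TG (Log2FC -0.19). The remaining judged receptors, Tnfrsf10b, Tnfrsf11a, Tnfrsf19, Tnfrsf22 and Tnfrsf23, had Log2FC from -0.31 to 0.13.

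Genes that work beside these families but fall outside the symbol rule were taken as 6 lists, whose counts are to be read against the 17.2% of all genes called (8.48% higher and 8.73% lower). Among 28 measured gp130 and growth-type cytokine genes, 1 passed as higher and 2 as lower, with a median Log2FC of 0.16. Csf1r, the receptor that keeps macrophages alive and also a marker on the macrophage list, rose from 290.0 ± 28.4 to 604.4 ± 104.6 normalized counts (Log2FC 1.06, edgeR adjusted p = 0.000598), with 873 exon bases opposite Hmgxb3. Both ligand-specific partners of gp130 for LIF and oncostatin M fell: Lifr had 993, 1242, 758 and 839 counts in NTG and 484, 556 and 661 in mNrf2-TG (Log2FC -0.80, adjusted p = 0.0053), and Osmr had 346, 669, 594 and 301 against 226, 270 and 209 (Log2FC -1.04, adjusted p = 0.0167).

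Among the 15 atypical chemokine receptors and other chemokine genes, 2 passed as higher and 1 as lower (median 0.01). Ccrl2, a non-signalling receptor that presents chemerin, had 165, 182, 105 and 225 counts in NTG and 51, 69 and 71 in mNrf2-TG (Log2FC -1.45, edgeR adjusted p = 0.0033). Cmtm7 had a Log2FC of 0.55 (adjusted p = 0.032), and Xcr1, the receptor of cross-presenting dendritic cells, had 2, 3, 2 and 5 counts against 8, 15 and 7 (Log2FC 1.66, adjusted p = 0.0418). Xcr1 had a mean count under 10 and Clec9a, another marker of those cells, fell (Log2FC -0.81), a call lost without NTG 2, mNrf2-TG 17 or mNrf2-TG 19 at adjusted p of up to 0.0726. Of the 11 measured TNF superfamily genes outside the rule, Eda alone passed, from 25.1 ± 3.11 to 50.1 ± 10.2 (Log2FC 0.99, edgeR adjusted p = 0.0108), against a list median of -0.18.

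In the JAK-STAT and SOCS list, 2 of 25 genes passed as higher and 4 as lower (median 0.04), against 8.48% and 8.73% of all genes. The feedback inhibitors Cish and Socs2, which STAT5 induces, fell from 934.5 ± 163.3 to 579.8 ± 95.8 and from 387.1 ± 27.8 to 252.3 ± 48.0 (Log2FC -0.69 and -0.61, edgeR adjusted p = 0.0123 and 0.00924). Jak2 and Pias2 had Log2FC of -0.39 and -0.34, and Tyk2 and Socs7 of 0.43 and 0.44. Socs3, the feedback inhibitor of gp130, had 43, 36, 77 and 32 counts against 21, 26 and 19 (Log2FC -1.14) and missed the threshold (edgeR adjusted p = 0.0526).

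In the NF-κB list, 2 of 20 genes passed as higher and 4 as lower (median -0.01), against 8.48% and 8.73% of all genes. Whether this share differs from that of all genes was not tested. Nfkbia, the inhibitor IκBα and itself a target of NF-κB, had 430, 725, 435 and 451 counts in NTG and 209, 252 and 253 in mNrf2-TG (Log2FC -1.13, edgeR adjusted p = 0.00084). Bcl3, an atypical IκB protein, went from 67.9 ± 23.4 to 21.2 ± 4.01 (Log2FC -1.68, adjusted p = 0.00611), and Nfkb2, the p100 precursor, from 231.8 ± 9.30 to 167.7 ± 4.14 (Log2FC -0.47, adjusted p = 0.00607). Ikbkg (NEMO), the regulatory subunit of the IκB kinase, rose from 403.8 ± 41.5 to 850.1 ± 127.6 (Log2FC 1.07, adjusted p = 0.00041), and its exons share 418 bases with G6pdx on the opposite strand. Nfkbib and Tnip1 had Log2FC of -0.37 and 0.52. The subunits Nfkb1 and Rela were level, with Log2FC of -0.03 and 0.04 (SE 0.08 each).

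Of the 25 adaptors of the IL-1, Toll and TNF receptors, 1 passed as higher and 2 as lower (median -0.05). Map3k7 (TAK1) rose from 745.0 ± 43.0 to 1094.9 ± 141.5 normalized counts (Log2FC 0.55, edgeR adjusted p = 0.00469), while its adaptor Tab2 fell (Log2FC -0.42, adjusted p = 0.00749), as did Birc3 (cIAP2; Log2FC -0.46, adjusted p = 0.0331). Across the 6 lists, Lifr, Csf1r, Ccrl2, Eda, Socs2, Nfkb2, Nfkbia, Bcl3, Ikbkg, Map3k7 and Tab2 kept their call whichever library was left out. Osmr lost it without mNrf2-TG 17 or 19, Cish without mNrf2-TG 17 or 18 and Tyk2 without mNrf2-TG 19, at adjusted p of up to 0.068. Cmtm7, Jak2 and Socs7 lost it without NTG 1, NTG 2 or any mNrf2-TG library, Tnip1 without NTG 1, NTG 2, mNrf2-TG 18 or 19, and Xcr1 without NTG 1, NTG 2, NTG 3, mNrf2-TG 17 or 18. Pias2, Nfkbib and Birc3 kept it in 1 of the 7 such fits each, which left out NTG 4, NTG 3 and mNrf2-TG 18.

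**Figure D5:**
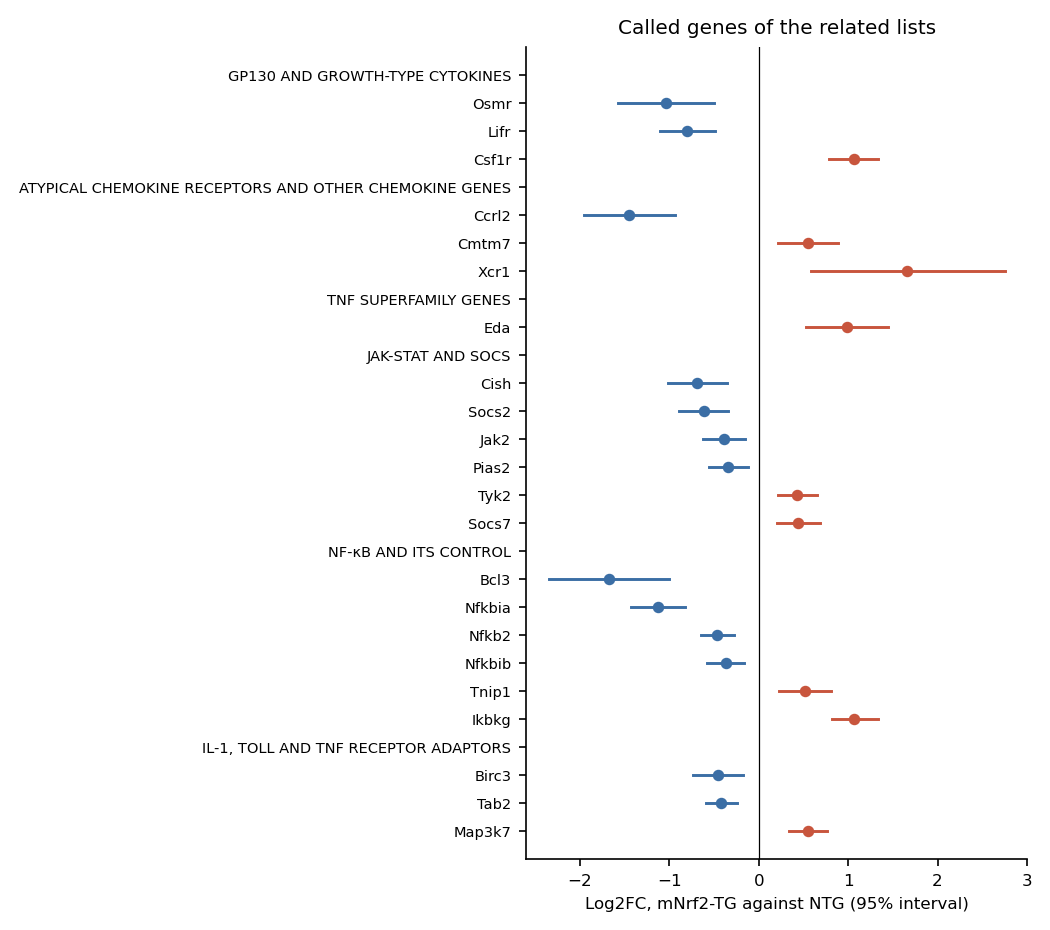
Log2FC of mNrf2-TG against NTG with its 95% interval for the called genes of the 6 related lists (red, higher; blue, lower). The widest interval is that of Xcr1 and the lowest Log2FC that of Bcl3, at -1.68.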

How the data were processed

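Total RNA of whole hearts had been made into libraries with a stranded mRNA kit. According to the authors and their processing notes, reads of 50 bases were aligned with Novoalign 2.08.01 to mm10 (GRCm38) and counted per gene; whether strand was used in counting is not given in the sources used here. The deposited table holds raw counts for 4 NTG and 3 mNrf2-TG libraries (14665 entries, 24 repeats removed). Normalized values and the authors' own comparison columns (fold changes and p-values) were not used; gene symbols were read from the comparison table. Genes with a summed count above 1 were fitted (14637) with edgeR 4.0.16 in R 4.3.3 (TMM, quasi-likelihood test, Benjamini-Hochberg adjustment over all genes), after checking the script on simulated data. The SE is the Log2FC divided by the root of F. DESeq2 1.42.0, other scalings and filters, and leaving out each library were alternatives. Levels per kilobase used GENCODE M21 exon lengths; promoters came from RefSeq (GRCm38.p6).

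The members and lists were chosen with earlier results of these data known. Named genes are those called, those over 2-fold at an unadjusted p under 0.05 with a mean count of at least 10, and the 3 of highest count per role; of each list, the called genes, up to 4 by smallest p. All other genes given with values were named after their values were seen. Beside the marker lists given with the results, mast cell (5 measured), adipose tissue (4), red blood cell (6) and thymus and lymph node (5) markers had 0 called genes by edgeR. Dendritic cell markers had 1 higher and 1 lower of 8, endothelial markers 1 and 3 of 10, fibroblast markers 6 and 0 of 10, smooth muscle and pericyte markers 0 and 1 of 10, and cardiomyocyte markers 0 and 2 of 10. The fit had no covariate. Of the called genes, 1 enters the counts but is not reported here.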

Additional observations from a re-analysis of the deposited data

Results flagged for a closer look

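Among the NTG groups of the 31 named genes, 4 held a library far from the other NTG libraries by Dixon's criterion, in normalized counts. Chance alone marks about 1 in 20 groups if values are normally distributed and genes independent, which was not checked. Some of the genes were named for their values, and the share over all genes is not given. The 4 of 31 can therefore not be read as an excess. Tnfrsf12a had 787.8 in NTG 3 against 243.0 to 316.6 in the others. Il10rb had 934.2 in NTG 3 against 1553.2 to 1639.7. Tnfrsf14 had 17.2 in NTG 1 against 3.98 to 4.5, and Tnfsf10 had 133.4 in NTG 4 against 182.7 to 192.8.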

How the results depend on the processing

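No paired analysis was possible because the groups share no replicate numbers. With each library left out in turn, 6 to 14 of the 113 genes were called (main count 12), 2 to 8 as higher. By role the range was 1 to 4 chemokine ligands, 1 to 3 chemokine receptors, 0 to 1 interleukins, 2 to 5 interleukin receptors and 0 to 2 TNF receptors, and by list 2 to 8 JAK-STAT and SOCS genes, 1 to 3 TNF superfamily genes, 1 to 3 atypical chemokine genes and 2 to 5 gp130 and growth-type genes. DESeq2 called 15 of the 113 genes, the same 12 with Ccl8, Cxcl9 and Il6st, and so 4 chemokine ligands, and it called 5 genes of the gp130 list. With genes of a mean count under 10 left out, 9 passed the 2-fold cut, as the 5 low genes among the 14 were not fitted. No named gene changed direction past the threshold in any alternative. The 4 calls that held throughout were Il18bp, Il1r1, Il4ra and Cxcl1, the last with a mean count under 10 in mNrf2-TG. Depth limits the 52 low genes, with under 10 counts on average per library. With a minimum mean count of 5 or 20 in place of 10, 45 or 59 genes were too low.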

Other observations

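Il15 and Tnfrsf12a split the libraries in a way that crossed the genotype. In normalized counts, Il15 had 43.3 in NTG 3, 75.3 in mNrf2-TG 17 and 17.7 in mNrf2-TG 18, against 304.6, 306.0 and 157.3 in NTG 1, 2 and 4 and 241.4 in mNrf2-TG 19. Tnfrsf12a was 787.8, 847.8 and 713.3 in the first 3 of these and 243.0 to 431.1 in the other 4. Il10rb did not show this split. It had 934.2 in NTG 3, within the 746.7 to 1074.7 of mNrf2-TG, against 1553.2 to 1639.7 in the other NTG libraries. H2-Ab1, a class II antigen-presentation gene, reached 1263 counts in mNrf2-TG 18 against 67 in NTG 3 and 139 to 391 in the rest. These values were chosen after they were seen and were not tested.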
